A study of Mus musculus with 203 samples.

Results

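The 10 genes described here encode receptors that restrain or direct activated T cells, ligands of those receptors, and regulators of suppressive T cells: Pdcd1, Cd274, Pdcd1lg2, Ctla4, Icos, Lag3, Havcr2, Tigit, Il10 and Foxp3. They were chosen by name, as a list, and make up 10 of the 43346 genes in the table. All 10 were found, and all 10 passed the filter on low counts in every fit. They were measured by bulk RNA-seq of mouse lung, in 43 libraries at 3 weeks and 160 at 11 weeks, in 20 groups set by week, tissue and exposure. Airway and parenchyma, the gas-exchanging part of the lung, were separated by blunt dissection.

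All mice were wild-type female Balb/C, labelled as 18 to 20 weeks old. At 3 weeks, mice had received house dust mite (HDM) extract or its vehicle, phosphate buffered saline (PBS), intranasally on 5 days a week. These groups held 10 HDM and 11 PBS airway libraries, and 10 HDM and 12 PBS parenchyma libraries. At 11 weeks the HDM or PBS exposure had gone on from weeks 4 to 11 at 3 times a week, and mice breathed normal air (AIR) or cigarette smoke (CS), the smoke on 5 days a week for 8 weeks. Separate groups also received dexamethasone (DEX), a synthetic glucocorticoid, during week 11. The 16 groups at 11 weeks, written as PBS.AIR, HDM.CS.DEX and so on for each tissue, held 10 libraries each.

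PD-1, the product of Pdcd1, is a receptor that dampens T cell signalling when it binds PD-L1 or PD-L2, the products of Cd274 and Pdcd1lg2, on other cells. CTLA-4 competes with the stimulating receptor CD28 for the same ligands, whereas ICOS is a stimulating relative of CD28 found on activated and follicular helper T cells. LAG-3, TIM-3 (Havcr2) and TIGIT are further inhibitory receptors. Interleukin-10 (Il10) is an anti-inflammatory cytokine, and Foxp3 is the transcription factor that defines regulatory T cells. Several of these genes are not restricted to T cells: Cd274 is widely expressed, and Havcr2 and Pdcd1lg2 are also expressed by macrophages and dendritic cells.

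Total counts ranged from 13003154 to 40240733 per library (median 28090684), and no libraries of a group agreed within sampling noise. One library, coded X109 and labelled as HDM.AIR airway, held a summed level of 12.8 CPM (counts per 1000000 counts of the library) of the cartilage genes Col2a1, Acan and Chad, within the parenchyma range of 5.07 to 28.2 CPM and below the other airway libraries, which started at 14.6 CPM. It is called the library labelled HDM.AIR airway. In 3 airway control libraries, lymphocyte genes stood apart. The 3 week PBS libraries X81 and X161 and the PBS.AIR library X65 had summed levels of 362, 446 and 586 CPM over 15 T cell markers, against group medians of 184.6 CPM at 3 weeks and 161.1 CPM at 11 weeks, and of 454, 477 and 426 CPM over 6 B cell markers. Results that rest on these 4 libraries are given with and without them. Because these are bulk samples, fewer cells of a type and less RNA per cell cannot be told apart.

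Pdcd1, Ctla4, Icos and Il10 lie on chromosome 1, where Ctla4 and Icos are neighbours 62094 bases apart. Cd274 and Pdcd1lg2 are neighbours on chromosome 19, with 22823 bases between them. Lag3 is on chromosome 6, Havcr2 on 11, Tigit on 16 and Foxp3 on X. The 250 bases upstream of the RefSeq start were found for 7 of the 10 genes. Those of PD-1 and of its 2 ligands are shown because these genes had large HDM effects in what follows and because the ligands are neighbours. The sequences are from GRCm38.p6, 5′ to 3′ on the strand of the gene, and capitals mark GGAAA on either strand, the core letters of NFAT sites. NFAT factors act downstream of the T cell receptor.
Pdcd1, chr1:94052554-94052803, minus strand: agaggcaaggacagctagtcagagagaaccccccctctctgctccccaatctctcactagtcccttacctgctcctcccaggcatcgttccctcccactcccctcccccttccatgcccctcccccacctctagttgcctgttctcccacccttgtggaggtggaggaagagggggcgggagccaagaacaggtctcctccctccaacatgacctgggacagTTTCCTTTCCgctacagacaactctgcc
Cd274, chr19:29367188-29367437, plus strand: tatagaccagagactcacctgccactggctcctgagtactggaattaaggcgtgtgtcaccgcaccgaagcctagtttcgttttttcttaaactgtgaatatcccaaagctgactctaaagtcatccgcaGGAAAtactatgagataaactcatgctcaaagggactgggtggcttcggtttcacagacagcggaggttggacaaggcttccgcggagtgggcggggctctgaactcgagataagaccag
Pdcd1lg2, chr19:29410669-29410918, plus strand: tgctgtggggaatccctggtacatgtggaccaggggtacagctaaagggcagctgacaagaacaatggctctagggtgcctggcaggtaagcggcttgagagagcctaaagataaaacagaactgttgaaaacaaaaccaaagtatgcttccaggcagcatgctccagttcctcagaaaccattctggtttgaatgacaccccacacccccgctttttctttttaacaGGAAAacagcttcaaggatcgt
The Pdcd1 window held GGAAA 2 times, and both ligand windows held it once. Counting both strands, GGAAA was found in 6 of the 7 genes (not Havcr2) and in 55.6% of all 32851 upstream windows. The STAT-type palindrome TTCNNNGAA was found in 1 gene, in 1 of the 2 Foxp3 starts, where it overlapped a GGAAA match, and in 7.02% of all windows. The AP-1 motif TGACTCA was found in none of the 7 genes and in 4.46% of all windows.

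Per kilobase of exon, Cd274 had the highest mean level of the 10 genes and Havcr2 the next highest in all 4 groups at 3 weeks. In PBS airway these levels were 6.02 ± 0.79 and 4.13 ± 0.71 CPM per kb (SD, n = 11). Foxp3 and Il10 were lowest, at 0.230 ± 0.196 and 0.224 ± 0.177 CPM per kb. In HDM airway Cd274 reached 52.4 ± 22.5 CPM per kb and Havcr2 14.2 ± 4.36 (SD, n = 10). Tigit, Pdcd1, Pdcd1lg2, Lag3, Icos and Ctla4 then lay between 11.9 and 8.81 CPM per kb, neighbours in that order differing by less than their SDs. Il10 followed at 1.80 ± 0.66 and Foxp3 at 0.546 ± 0.160.

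Across the 20 groups, 9 of the 10 genes had their highest mean level in a 3 week HDM group. Foxp3 was the exception, with its highest mean in PBS.CS airway, although its median there, 2.78 CPM, was below the 3.12 CPM of HDM.AIR airway. The lowest mean was in a PBS group for every gene, and for 9 of the 10 (not Cd274) in one that received dexamethasone. The ratio of the highest to the lowest group mean ran from 5.75 for Havcr2 to 107.7 for Tigit and 108.02 for Ctla4. Most neighbours in the order of the 20 groups did not differ beyond their spread: of 19 neighbouring pairs, 1 to 4 per gene differed by more than the larger SD. For Pdcd1 these were 4 pairs, among them 3 week HDM airway over HDM.AIR airway and HDM.CS parenchyma over HDM.CS.DEX airway. For Il10, Lag3 and Foxp3 there was 1 pair each.

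**Figure D1:**
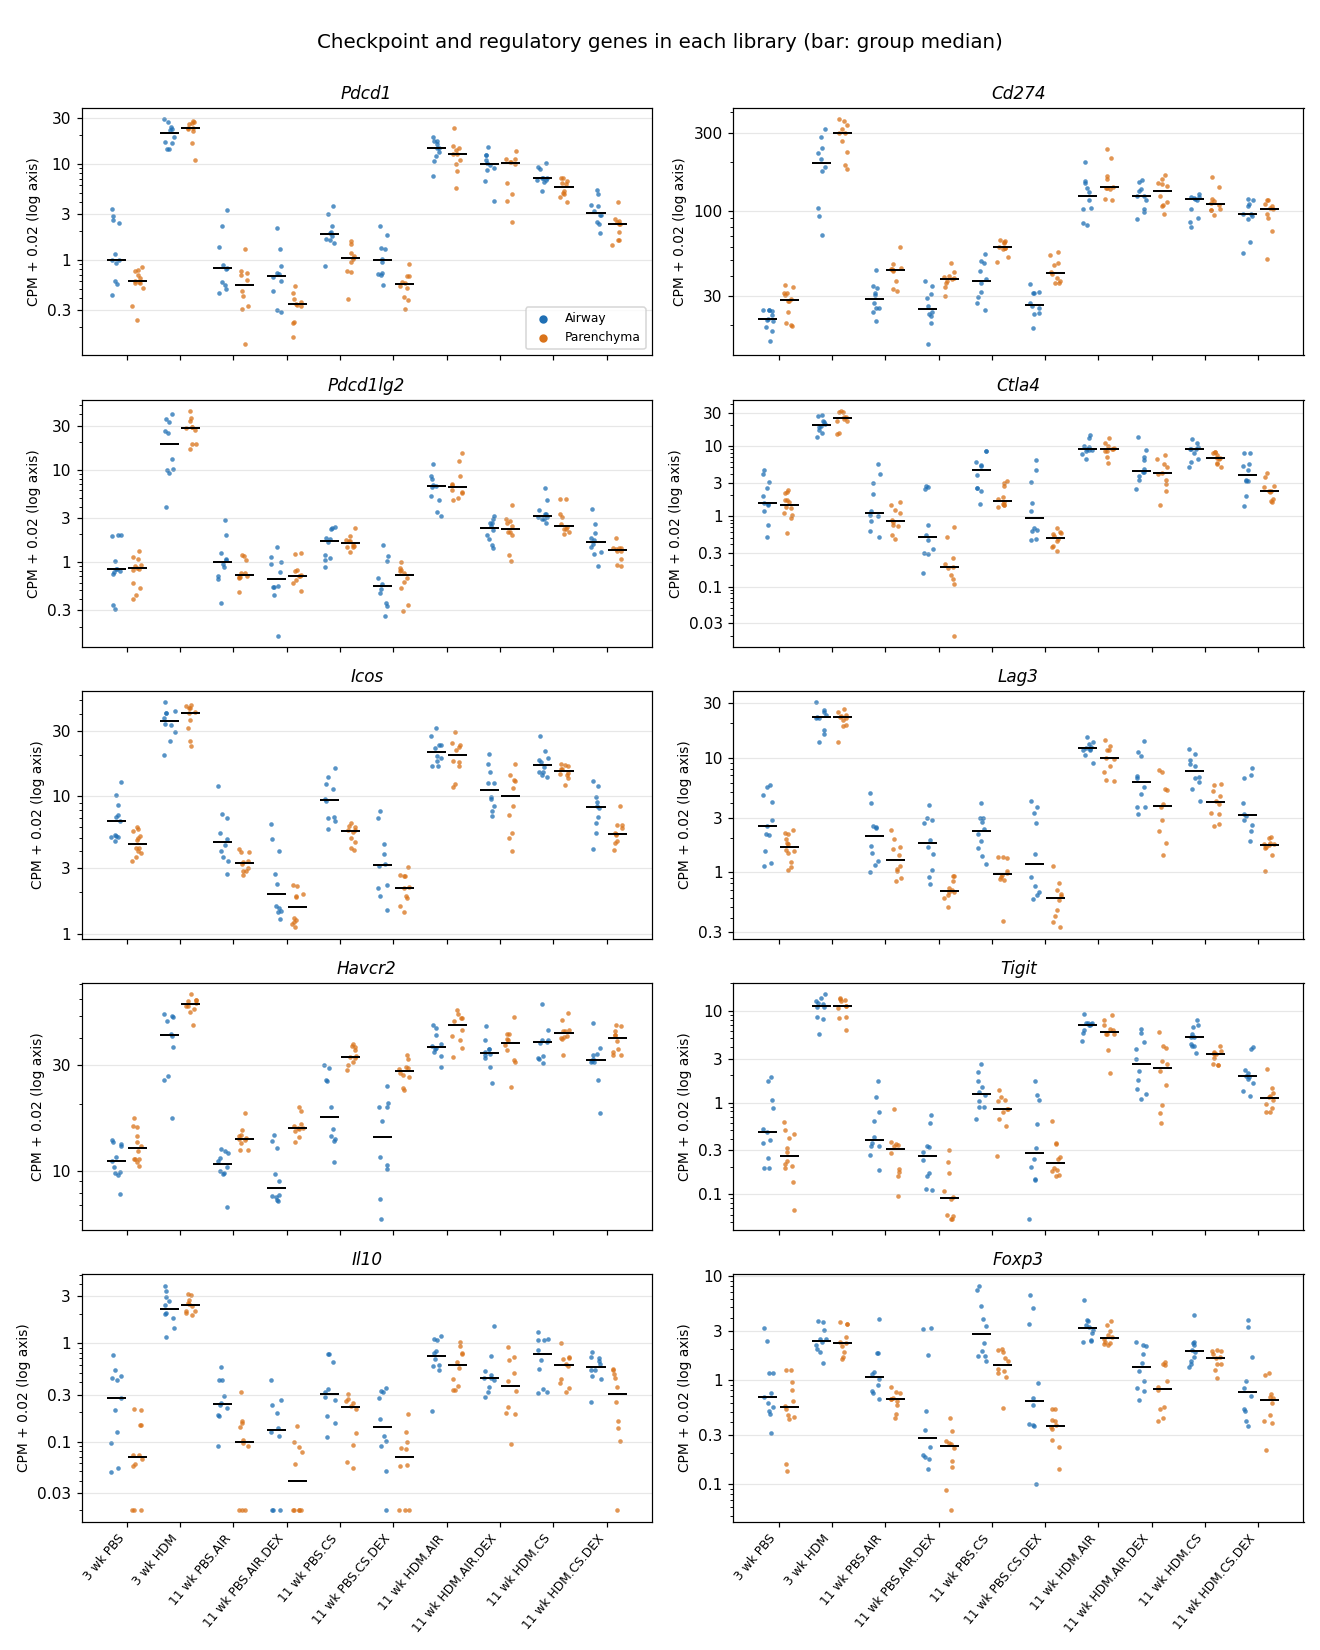
Level of each gene in each library, in CPM on a log axis with 0.02 CPM added, by group, airway and parenchyma in separate colours and a bar at each group median. In air, the HDM groups have higher medians than the PBS groups for all 10 genes at both times, without overlap for most, and the Foxp3 libraries that reach highest, up to 8.11 CPM, are in PBS.CS airway.

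HDM exposure for 3 weeks raised all 10 genes in both tissues. By limma-voom, 10 of 10 were called higher in airway, where 12.1% of all genes were called higher, and 10 of 10 in parenchyma, where the share was 14.5%. A call required a Benjamini-Hochberg adjusted p under 0.05 over all genes and a log2 fold change of at least 1. The median log2 fold change of the 10 was 3.07 in airway and 3.79 in parenchyma, against -0.07 and -0.13 over all genes tested.

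Among the inhibitory receptors, Pdcd1 in parenchyma ranged from 0.219 CPM over a median of 0.576 to 0.823 in PBS libraries, and from 10.8 over 23.6 to 27.9 CPM in HDM libraries. Every HDM library was above every PBS library. The log2 fold change was 5.17 ± 0.37 (SE, adjusted p = 2.7e-16, limma-voom), and in airway it was 3.91 ± 0.28 (adjusted p = 8.9e-16). Tigit ranged from 0.0471 over 0.238 to 0.600 CPM in PBS parenchyma and from 6.15 over 11.2 to 13.7 CPM in HDM parenchyma. These groups did not overlap either, and the log2 fold changes were 5.21 ± 0.40 in parenchyma and 4.20 ± 0.32 in airway. Ctla4 rose from a median of 1.51 to 20.2 CPM in airway and from 1.45 to 24.8 CPM in parenchyma, log2 fold changes of 3.43 ± 0.25 and 3.98 ± 0.28. Lag3 rose by 2.90 ± 0.20 and 3.60 ± 0.24. Havcr2 had the smallest change of the receptors, 1.63 ± 0.15 and 2.01 ± 0.15, although no library of the HDM groups was as low as any PBS library.

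The ligands of PD-1 rose as well. Cd274 in airway ranged from 16.1 over 21.7 to 24.7 CPM in PBS libraries and from 71.3 over 195.2 to 316 CPM in HDM libraries, with no overlap. Its log2 fold change was 2.89 ± 0.18 (adjusted p = 1.1e-17, limma-voom) in airway and 3.24 ± 0.18 (adjusted p = 1.3e-19) in parenchyma. Pdcd1lg2, which starts from under 2 CPM, ranged from 0.290 over 0.819 to 1.95 CPM in PBS airway and from 3.93 over 19.2 to 40.3 CPM in HDM airway. Its HDM libraries spanned the widest range of the 10 genes relative to their median, yet all were above the PBS libraries. The log2 fold changes were 4.09 ± 0.53 in airway and 5.02 ± 0.57 in parenchyma. Markers of cells that also express Cd274, Pdcd1lg2 and Havcr2 moved with HDM: 7 of 10 macrophage markers were called higher in each tissue, 1 was called lower in airway, and 4 of 8 dendritic cell markers were called higher in each tissue. The summed macrophage markers ranged from 4168 to 7628 CPM in PBS and 8460 to 24302 CPM in HDM airway, and from 5908 to 11215 and 19812 to 38670.4 CPM in parenchyma. The summed dendritic cell markers ranged from 74.7 to 218 and 171.1 to 267 CPM in airway, and from 65.5 to 95.9 and 209 to 301 CPM in parenchyma. The part of these cells in the rise of the 3 genes was not tested.

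Icos, the stimulating receptor of the list, rose by 2.23 ± 0.17 in airway and 2.91 ± 0.19 in parenchyma on the log2 scale, from medians of 6.56 and 4.50 CPM to 35.5 and 40.6 CPM. Il10 was close to the limit of detection in PBS parenchyma, from 0 over 0.0498 to 0.195 CPM, and ranged from 1.92 over 2.44 to 3.13 CPM in HDM parenchyma. The groups were apart, and the log2 fold changes were 5.02 ± 0.45 in parenchyma and 3.23 ± 0.35 in airway. Foxp3 changed least in parenchyma after Havcr2, with log2 fold changes of 1.42 ± 0.28 (adjusted p = 2.5e-05, limma-voom) in airway and 2.07 ± 0.33 (adjusted p = 2.8e-07) in parenchyma. In airway, PBS libraries ranged from 0.292 over 0.678 to 3.15 CPM and HDM libraries from 1.45 over 2.37 to 3.71 CPM. Foxp3 was the only gene of the 10 whose airway groups overlapped at 3 weeks, and the share of all genes without overlap is not given here.

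**Figure D2:**
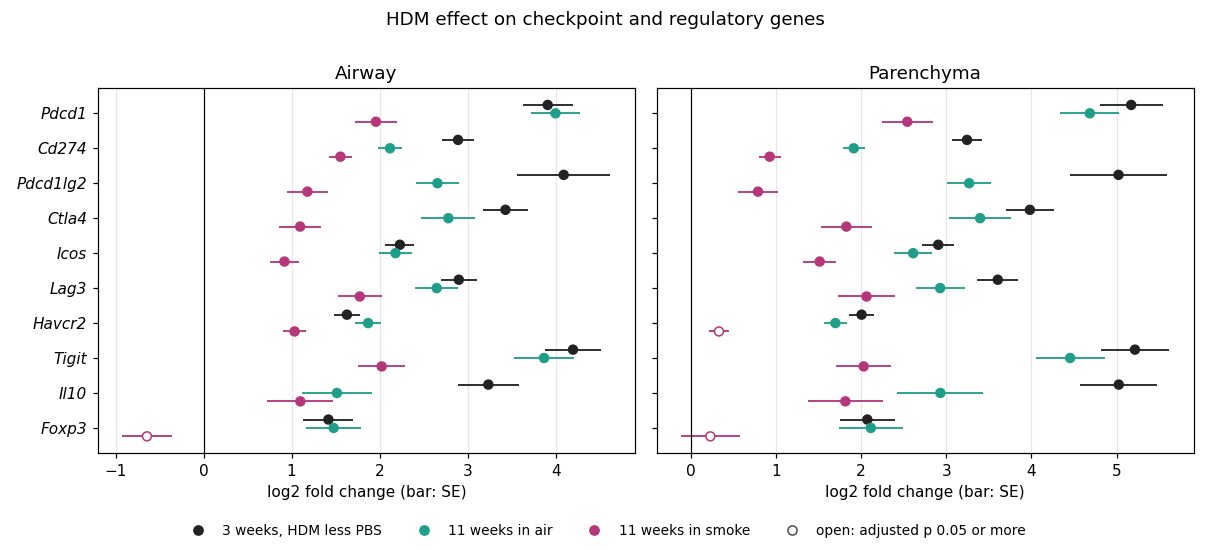
Log2 fold change of HDM over PBS for each gene with its standard error, by limma-voom, at 3 and 11 weeks, in air and in smoke, in airway and parenchyma. All values lie above 0 at 3 weeks and in air at 11 weeks, and in smoke Foxp3 reaches -0.64 in airway and 0.23 in parenchyma.

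Few of these genes were called different between airway and parenchyma in control tissue, although their median log2 difference lay above 0 in airway. It was 0.55 at 3 weeks and 0.62 at 11 weeks, against -0.05 and -0.03 over all genes tested. At 3 weeks, Il10 and Pdcd1 were called higher in PBS airway than in PBS parenchyma, 2 of the 10 genes against 10.0% of all genes, with log2 differences of 1.58 ± 0.52 (adjusted p = 0.0097, limma-voom) and 1.06 ± 0.44 (adjusted p = 0.039). Cd274 was lower in airway by 0.41 ± 0.18 (adjusted p = 0.044). Without the libraries X65, X81 and X161 the Pdcd1 difference was 0.79 (adjusted p = 0.15) and the Cd274 difference -0.39 (adjusted p = 0.091), so that 1 gene, Il10, remained called. At 11 weeks 1 of the 10, again Il10, was called higher in PBS.AIR airway, against 13.4% of all genes, with a log2 difference of 1.64 ± 0.54 (adjusted p = 0.0064). Cd274 was lower by 0.57 ± 0.13 and Havcr2 by 0.45 ± 0.16 in airway at that time.

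The HDM effect differed between the tissues for 1 of the 10 genes at 3 weeks by limma-voom, near the share of 6.44% of all genes. The Il10 effect was lower in airway than in parenchyma by 1.79 ± 0.57 on the log2 scale (adjusted p = 0.025, limma-voom interaction). Without X65, X81 and X161 the difference was -1.55 (adjusted p = 0.071) and no gene passed. The count moved with the method: 5 of the 10 passed by edgeR and by DESeq2, 3 with all libraries in one fit, 2 with DESeq2 size factors and 0 with quality weights.

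At 11 weeks in air, HDM again raised all 10 genes in both tissues. In airway 10 of 10 were called higher against 10.6% of all genes, and in parenchyma 10 of 10 against 13.0%. The median log2 fold change was 2.41 in airway and 2.93 in parenchyma. Pdcd1 had the largest change in both, 4.00 ± 0.28 (adjusted p = 1.1e-27, limma-voom) and 4.68 ± 0.34 (adjusted p = 5.7e-26). Its PBS.AIR airway libraries ranged from 0.432 over 0.793 to 3.26 CPM and its HDM.AIR airway libraries from 7.43 over 14.6 to 18.8 CPM, without overlap. Tigit followed with 3.87 ± 0.34 and 4.45 ± 0.41.

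The smallest changes at 11 weeks were those of Il10 and Foxp3 in airway and of Havcr2 and Cd274 in parenchyma. Il10 in airway ranged from 0.0705 over 0.222 to 0.556 CPM in PBS.AIR and from 0.184 over 0.723 to 1.15 CPM in HDM.AIR. These groups overlapped, and the log2 fold change was 1.51 ± 0.39 (adjusted p = 0.00044, limma-voom). Foxp3 in airway also overlapped, from 0.643 over 1.06 to 3.86 CPM and from 2.33 over 3.12 to 5.83 CPM, with a change of 1.48 ± 0.32. In parenchyma Havcr2 changed by 1.70 ± 0.14 and Cd274 by 1.91 ± 0.13, and there all 10 genes had every HDM.AIR library above every PBS.AIR library. The share of all genes apart in this way is not given here, so that count has no background.

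The HDM effect was smaller at 11 than at 3 weeks for both PD-1 ligands and for Il10. In airway these 3 of the 10 genes passed the test of the difference against 13.9% of all genes, and in parenchyma the same 3 against 20.9%. Cd274 was lower by 0.83 ± 0.21 (adjusted p = 0.00082, limma-voom) in airway and by 1.45 ± 0.21 (adjusted p = 1.1e-09) in parenchyma. Pdcd1lg2 was lower by 1.48 ± 0.47 and 1.88 ± 0.51, and Il10 by 1.78 ± 0.53 and 2.22 ± 0.68. Median Il10 levels in HDM parenchyma were 2.44 CPM at 3 weeks and 0.587 CPM at 11 weeks, and those ranges, 1.92 to 3.13 and 0.311 to 1.02 CPM, were apart. The groups at 3 and 11 weeks also differ in the HDM schedule, so time and schedule cannot be told apart.

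Cigarette smoke alone raised some of these genes in PBS mice. In airway 4 of the 10 were called higher against 1.73% of all genes: Ctla4 by 1.47 ± 0.33 (adjusted p = 0.00055, limma-voom), Tigit by 1.40 ± 0.38 (adjusted p = 0.0055), Foxp3 by 1.37 ± 0.31 (adjusted p = 0.00064) and Pdcd1 by 1.07 ± 0.33 (adjusted p = 0.016). In parenchyma 5 of the 10 were called higher against 4.21%. These were Tigit, Havcr2, Ctla4, Foxp3 and Pdcd1lg2. Pdcd1 in parenchyma, at 0.99 ± 0.42 (adjusted p = 0.053), passed the adjusted p without X65, X81 and X161 (0.048). All airway groups overlapped. Without X65, X81 and X161, Cd274 and Pdcd1lg2 in airway also passed the adjusted p, with changes of 0.41 (adjusted p = 0.025) and 0.83 (adjusted p = 0.040). That fit kept the PBS.CS airway library with the highest T cell marker sum, 459 CPM.

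Havcr2 in parenchyma had the most clearly separated smoke effect. Its PBS.AIR libraries ranged from 12.4 over 14.0 to 18.3 CPM and its PBS.CS libraries from 28.5 over 32.8 to 37.4 CPM, so that every smoke library was above every air library, with a log2 fold change of 1.26 ± 0.14 (adjusted p = 4.7e-14, limma-voom). Pdcd1lg2 in parenchyma was also apart, 0.455 to 1.18 CPM in air and 1.28 to 2.32 CPM in smoke, with a change of 1.09 ± 0.30 (adjusted p = 0.0022). Foxp3 in airway ranged from 0.643 over 1.06 to 3.86 CPM in air and from 1.51 over 2.78 to 8.11 CPM in smoke, which overlap. Its parenchyma change was 1.09 ± 0.41 (adjusted p = 0.027). Lag3 gave values of 0.14 ± 0.30 in airway and -0.44 ± 0.38 in parenchyma, neither past the test. In the same comparisons the T cell markers Cd3d, Cd3e, Cd3g, Trbc2, Cd4 and Cd8a did not pass in either tissue by limma-voom. Of these, Cd4 had the largest airway value, 0.68 ± 0.29 (adjusted p = 0.10, limma-voom). The rest of the 15 T cell markers are not given here. Of the 10 macrophage markers, 3 were called higher in airway and 4 in parenchyma. The part of those cells in these changes was not tested.

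In HDM mice, smoke went with lower levels. The comparison HDM.CS against HDM.AIR gave 0 called genes of the 10 in airway by limma-voom, edgeR and DESeq2, against 1.97% of all genes called lower by limma-voom. Of the 10, 6 had an unadjusted limma-voom p under 0.05 and 3 passed the adjusted p alone against 10.1% of all genes: Pdcd1 at -0.97 ± 0.16 (adjusted p = 2.0e-06, limma-voom), Pdcd1lg2 at -0.82 ± 0.18 (adjusted p = 0.00034) and Lag3 at -0.73 ± 0.18 (adjusted p = 0.0012). Foxp3 at -0.75 ± 0.28 missed the threshold (adjusted p = 0.053) and passed without the library X109 (adjusted p = 0.043) and without X65, X81 and X161 (adjusted p = 0.049). In parenchyma 3 of the 10 were called lower against 3.46%, and 7 passed below 0 against 14.1%. The called genes were Pdcd1lg2 at -1.39 ± 0.19, Lag3 at -1.30 ± 0.21 and Pdcd1 at -1.15 ± 0.18. Lag3 in parenchyma ranged from 6.28 over 9.86 to 14.1 CPM in HDM.AIR and from 2.49 over 4.06 to 5.85 CPM in HDM.CS. Its groups did not overlap, and nor did those of Foxp3 (2.14 to 3.69 against 1.03 to 1.91 CPM), whose change was -0.79 ± 0.31 (adjusted p = 0.046). Of the 15 T cell markers, 8 passed below 0 in airway and 14 in parenchyma in the same comparison, and their part was not tested.

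The HDM effect within smoke was still present for most genes. With smoke as the background, 8 of the 10 were called higher in airway against 3.90% of all genes, and 6 in parenchyma against 2.71%. Tigit and Pdcd1 led in airway with 2.02 ± 0.26 and 1.96 ± 0.24, and Pdcd1 and Lag3 in parenchyma with 2.54 ± 0.30 and 2.06 ± 0.33. Foxp3 had values of -0.64 ± 0.28 (adjusted p = 0.066, limma-voom) in airway and 0.23 ± 0.34 (adjusted p = 0.79) in parenchyma, and neither passed the test. The HDM.CS libraries serve both this comparison and the one of smoke in HDM mice, and the PBS.AIR and HDM.AIR libraries likewise serve more than one comparison.

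The difference between the HDM effect in smoke and in air was tested directly. It was below 0 for 8 of the 10 genes in airway against 11.4% of all genes, and for the same 8 in parenchyma against 18.7%, with Lag3 and Il10 not passing in either. Foxp3 had the largest value in airway, -2.12 ± 0.42 (adjusted p = 7.4e-05, limma-voom), with Pdcd1 next at -2.04 ± 0.37 (adjusted p = 1.2e-05). Pdcd1lg2 and Tigit had the largest in parenchyma, -2.48 ± 0.35 (adjusted p = 3.7e-09) and -2.42 ± 0.52 (adjusted p = 5.4e-05). The airway value of Cd274, -0.56 ± 0.18 (adjusted p = 0.020), rests on the library X109: without it the value was -0.48 (adjusted p = 0.052), which takes the airway count from 8 to 7. Without X65, X81 and X161 the airway count was 9. Leaving out X109 changed no count of genes called by adjusted p and fold change together.

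**Figure D3:**
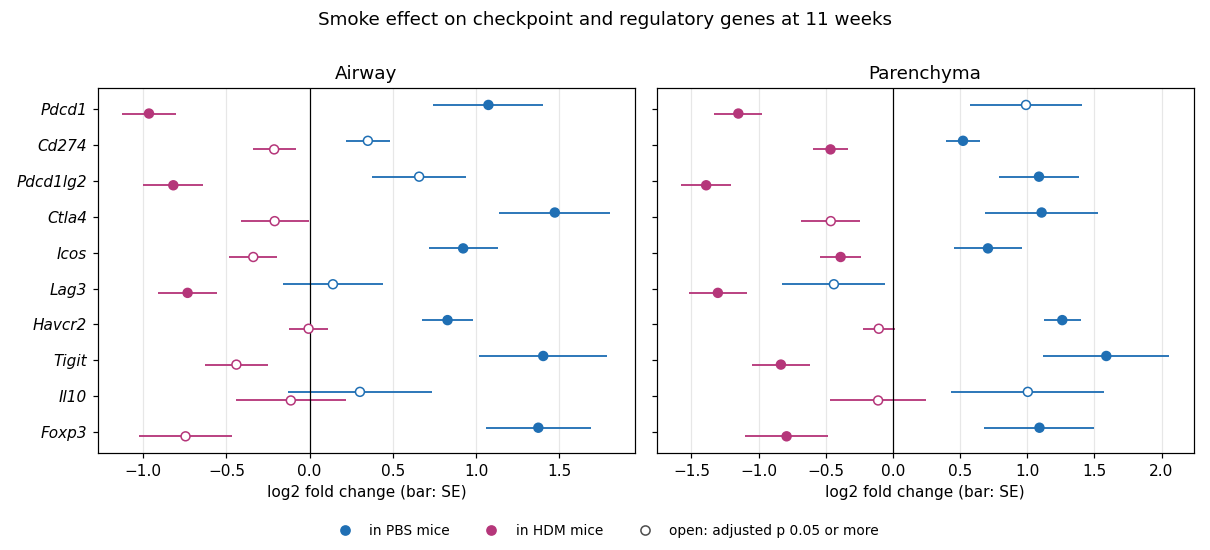
Log2 fold change of smoke over air for each gene with its standard error, by limma-voom, in PBS and in HDM mice at 11 weeks, in airway and parenchyma, with open points at adjusted p of 0.05 or more. Values lie mostly above 0 in PBS mice and below 0 in HDM mice.

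Dexamethasone lowered several of these genes. In PBS.AIR mice, 3 of the 10 were called lower in airway against 1.85% of all genes: Il10 at -1.54 ± 0.52 (adjusted p = 0.029, limma-voom), Foxp3 at -1.40 ± 0.43 (adjusted p = 0.015) and Icos at -1.09 ± 0.26 (adjusted p = 0.0015). Without the library X65, together with X81 and X161, none was called, while the PBS.AIR.DEX library with the highest T cell marker sum, 268 CPM, was kept. Il10 was then at -1.47 (adjusted p = 0.052) and Foxp3 at -1.21 (adjusted p = 0.051), while Icos at -0.95 still passed the adjusted p (0.0086) but not the fold threshold. In parenchyma Ctla4, Foxp3 and Icos were called lower, 3 of the 10 against 2.14%, by 2.38 ± 0.63, 1.74 ± 0.56 and 1.05 ± 0.31. Icos in parenchyma ranged from 2.63 over 3.24 to 4.10 CPM without and from 1.09 over 1.55 to 2.26 CPM with dexamethasone, with no overlap. T cell markers fell in the same comparisons, 11 of 15 called lower in airway and 8 in parenchyma, and their part in these changes was not tested.

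In HDM.AIR mice, 3 of the 10 genes were called lower with dexamethasone in airway against 5.07% of all genes, and 6 in parenchyma against 5.40%. Pdcd1lg2 fell most in airway, from a range of 3.16 over 6.62 to 11.5 CPM to one of 1.40 over 2.34 to 3.14 CPM. All libraries with dexamethasone were below those without it, and the log2 fold change was -1.48 ± 0.20 (adjusted p = 8.5e-10, limma-voom), with -1.64 ± 0.20 (adjusted p = 2.2e-11) in parenchyma. Foxp3 was also apart in both tissues, with changes of -1.32 ± 0.31 and -1.66 ± 0.36. Tigit fell by 1.40 ± 0.22 and 1.39 ± 0.24, and Lag3, Ctla4 and Icos were called lower in parenchyma, by 1.36 ± 0.22, 1.16 ± 0.25 and 1.02 ± 0.17. In airway the same 3 genes passed the adjusted p below the fold threshold, with values of -0.97 ± 0.19, -0.88 ± 0.23 and -0.93 ± 0.16, and the difference between the tissues was not tested. Cd274 had values of -0.03 ± 0.13 in airway and -0.19 ± 0.13 in parenchyma and Havcr2 of -0.15 ± 0.12 and -0.22 ± 0.12, none past the test.

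In HDM.CS mice, dexamethasone lowered 7 of the 10 genes in airway against 1.93% of all genes and 8 in parenchyma against 1.92%, the eighth being Il10. Icos had the smallest adjusted p in both, with changes of -1.19 ± 0.17 (adjusted p = 5.7e-08, limma-voom) and -1.46 ± 0.19 (adjusted p = 4.2e-09). Its airway range was 13.9 over 17.0 to 27.2 CPM without and 4.14 over 8.38 to 12.9 CPM with dexamethasone, and these did not overlap. Tigit fell by 1.39 ± 0.24 and 1.51 ± 0.29, and Pdcd1 by 1.23 ± 0.21 and 1.35 ± 0.24. Cd274 and Havcr2 again did not pass, with values of -0.26 ± 0.13 and -0.31 ± 0.12 in airway and -0.28 ± 0.13 and -0.11 ± 0.12 in parenchyma. Of the 15 T cell markers, 2 were called lower in airway and 8 in parenchyma in that comparison. For none of the 10 genes did the dexamethasone effect differ between HDM.CS and HDM.AIR mice, in airway against 0.334% of all genes and in parenchyma against 5.67%. The count was 0 by limma-voom, edgeR and DESeq2 alike, and 1 gene in each tissue had an unadjusted limma-voom p under 0.05. A missed threshold does not show that these effects were equal.

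**Figure D4:**
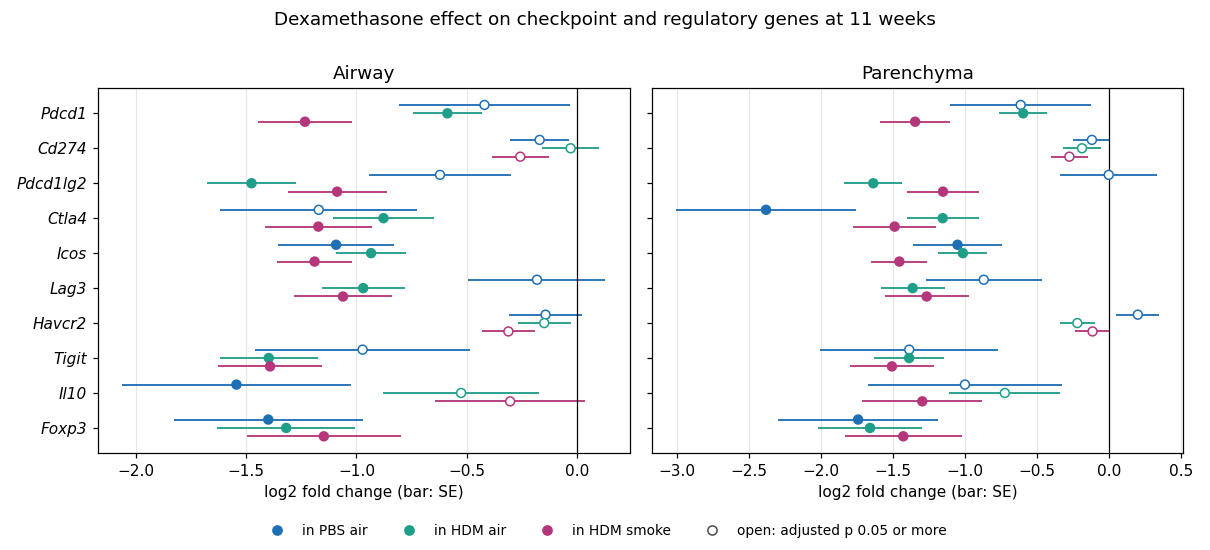
Log2 fold change of dexamethasone over no dexamethasone for each gene with its standard error, by limma-voom, in PBS.AIR, HDM.AIR and HDM.CS mice, in airway and parenchyma. Most values lie below 0, and those of Cd274 and Havcr2 lie between -0.31 and -0.03 in HDM mice.

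T cell receptor genes moved with the exposures as well. The mean log2 level of the Cd3 genes Cd3d, Cd3e and Cd3g, which encode the signalling part of the receptor complex, was higher with HDM by 1.38 in airway and 1.64 in parenchyma at 3 weeks, and by 1.46 and 1.67 at 11 weeks in air. With smoke it differed by 0.44 and -0.01 in PBS mice and by -0.54 and -0.69 in HDM mice. With dexamethasone it was lower by 0.55 and 0.81 in HDM.AIR mice and by 0.81 and 1.09 in HDM.CS mice. Of the 15 T cell markers, 10 were called higher with HDM in both tissues at 3 weeks, and their summed median level was 508 CPM in HDM against 184.6 CPM in PBS airway and 564 against 214 CPM in parenchyma. At 11 weeks in air 9 were called higher in airway and 12 in parenchyma. Each of 7 genes (Pdcd1, Ctla4, Icos, Lag3, Tigit, Il10, Foxp3) was therefore also expressed relative to the Cd3 genes, as a difference of log2 levels with 0.5 CPM added. Groups were compared by a 2-sided permutation test of 100000 resamples. Which cells expressed these genes was not tested. This gave 84 tests in 12 comparisons, with Benjamini-Hochberg adjusted p-values over all 84, and 41 passed.

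Relative to the Cd3 genes, HDM still raised 5 of the 7 genes in both tissues and at both times. At 3 weeks Pdcd1 was higher by 2.14 in airway (adjusted p = 0.00012, permutation test) and by 2.76 in parenchyma (adjusted p = 8.4e-05, from a p of 1e-05, the smallest these resamples can give), Tigit by 1.97 and 2.22, Ctla4 by 1.79 and 2.02, Lag3 by 1.40 and 1.71 and Icos by 0.88 and 1.24. At 11 weeks in air the differences were 1.84 and 1.95 for Pdcd1, 1.37 and 1.29 for Tigit, 0.81 and 1.08 for Ctla4, 0.84 and 0.79 for Lag3 and 0.54 and 0.71 for Icos. Every one of these passed, so the rise of these genes was larger than that of the Cd3 genes. Other T cell markers moved by unlike amounts at 3 weeks. Cd4 rose by 2.36 ± 0.23 in airway and 3.03 ± 0.27 in parenchyma, and Trbc2 by 0.71 ± 0.16 and 0.68 ± 0.16 (SE, limma-voom). No ratio to Cd4 was made, so a rise beyond that of Cd4 was not tested.

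Foxp3 and Il10 stood differently relative to the Cd3 genes, and values of both changed with the reference or the pseudocount. Both have low counts, with medians of 33 and 9 per library. For Foxp3 the HDM differences at 3 weeks were -0.30 in airway (adjusted p = 0.073, permutation test) and -0.19 in parenchyma (adjusted p = 0.42), and at 11 weeks -0.37 (adjusted p = 0.046) and -0.19 (adjusted p = 0.25). With Trbc2, a constant region of the T cell receptor, as the reference these values were 0.29, 0.68, 0.22 and 0.40, of which 0.68 passed (adjusted p = 0.013, permutation test). Il10 was 0.73 higher in parenchyma at 3 weeks (adjusted p = 0.0016) and 0.78 and 0.79 lower in airway and parenchyma at 11 weeks (adjusted p = 0.023 and 0.0002). With a pseudocount of 0.1 CPM the last value was 0.19. Mean Il10 levels in PBS.AIR were 0.268 CPM in airway and 0.0930 CPM in parenchyma, below the 0.5 CPM added. Mean Foxp3 in PBS.AIR airway was 1.38 CPM. The addition shrinks changes at such levels more than those of the Cd3 genes. The lower ratios at 11 weeks therefore do not show that Il10 or Foxp3 rose less than the Cd3 genes.

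With smoke in PBS mice, Foxp3 was higher relative to the Cd3 genes by 0.63 in airway (adjusted p = 0.00096, permutation test) and 0.73 in parenchyma (adjusted p = 0.00055), and Ctla4 by 0.69 and 0.78. In parenchyma Tigit was also higher, by 0.75 (adjusted p = 0.0024), as were Icos by 0.62 (adjusted p = 0.0011) and Pdcd1 by 0.54 (adjusted p = 0.046). In HDM mice smoke went with lower Pdcd1 relative to Cd3, by 0.33 in airway (adjusted p = 0.017) and 0.35 in parenchyma (adjusted p = 0.0063), whereas Icos was higher by 0.25 and 0.36. Il10 and Ctla4 were higher in parenchyma, by 0.65 (adjusted p = 0.017) and 0.31 (adjusted p = 0.025). Lag3 was lower by 0.47 in parenchyma (adjusted p = 0.015). With dexamethasone few ratios passed: Tigit was lower by 0.65 in HDM.AIR airway (adjusted p = 0.041), and in HDM.CS parenchyma Icos was lower by 0.29 (adjusted p = 0.046) and Il10 higher by 0.64 (adjusted p = 0.015). The other dexamethasone ratios did not pass. Mean Il10 levels in HDM.AIR, HDM.CS and HDM.CS.DEX parenchyma were 0.604, 0.563 and 0.285 CPM, near or below the 0.5 CPM added to each level. That addition shrinks changes of Il10 more than those of the Cd3 genes, so its higher ratios in parenchyma do not show a rise of Il10.

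**Figure D5:**
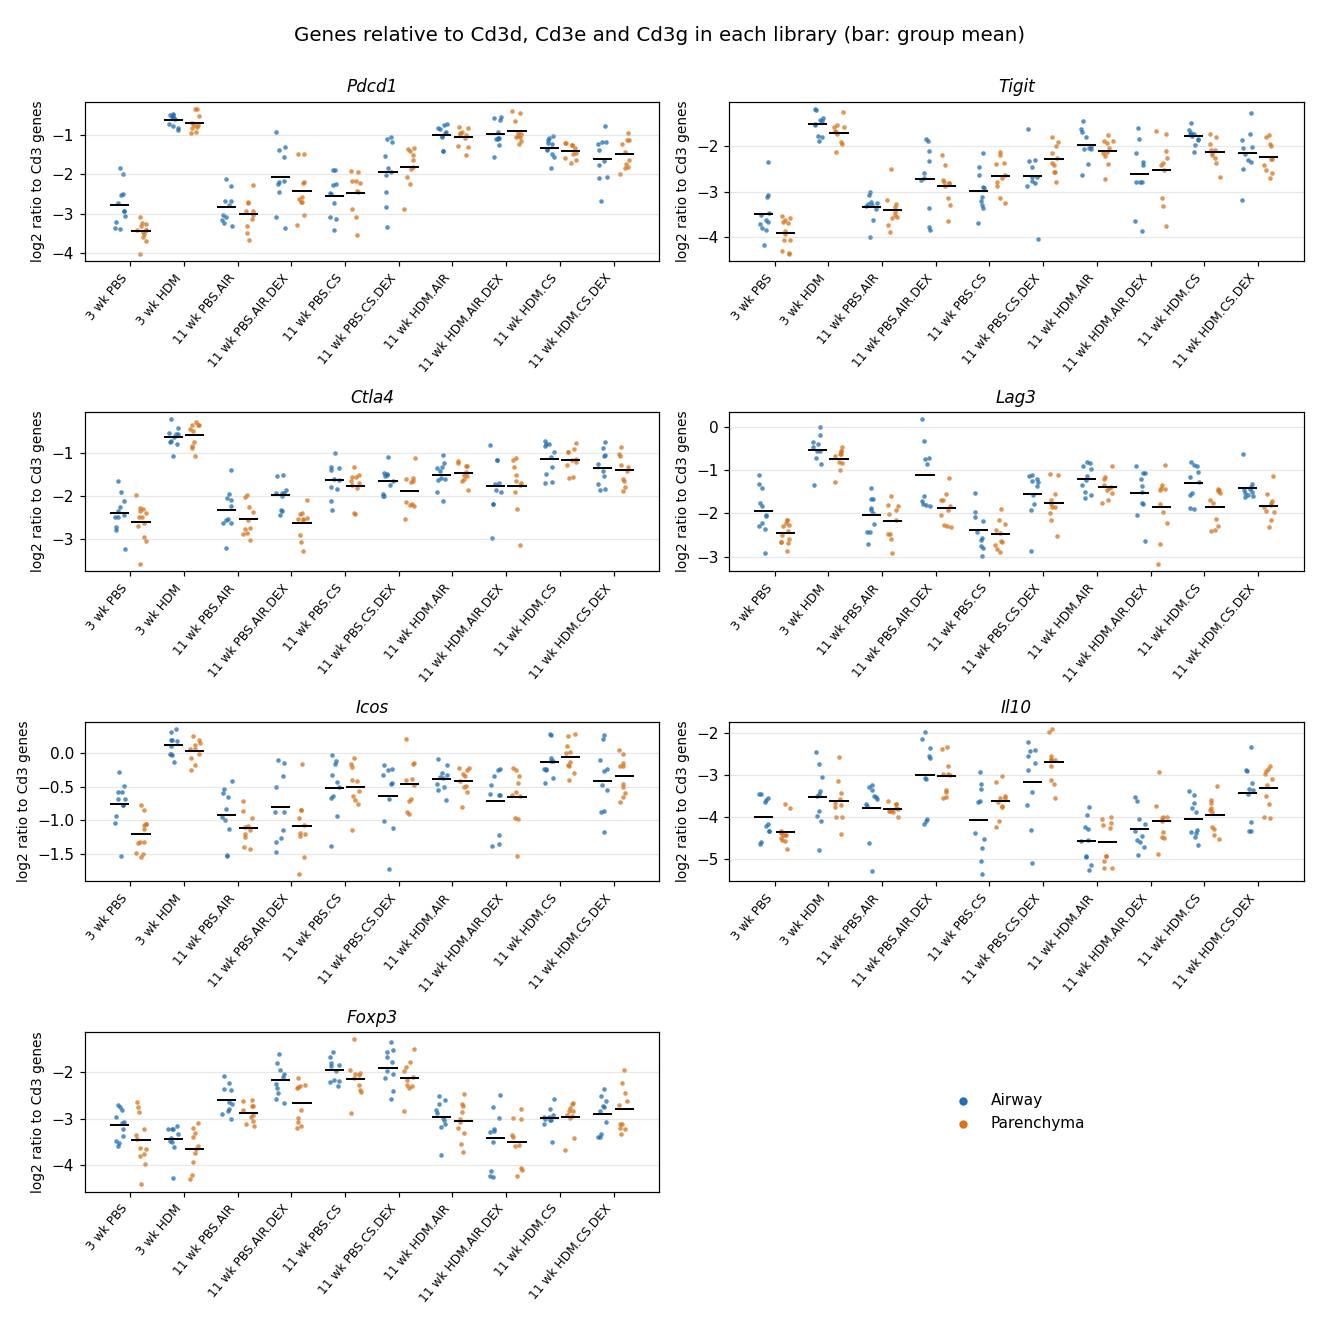
Level of Pdcd1, Tigit, Ctla4, Lag3, Icos, Il10 and Foxp3 relative to the mean of Cd3d, Cd3e and Cd3g, as a log2 difference with 0.5 CPM added to each level, in each library by group, with a bar at each group mean. In air, the HDM libraries lie mostly above the PBS libraries for Pdcd1, Tigit, Ctla4, Lag3 and Icos, and not for Foxp3.

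The wider pathway was described from lists of other genes. With HDM at 3 weeks, 12.1% of all genes were called higher and 11.8% lower in airway, and 14.5% higher and 15.1% lower in parenchyma. Of 16 ligands and receptors of the 10 genes, 6 were called higher and 1 lower in airway, and 8 and 2 in parenchyma. Cd80, a ligand of CTLA-4, rose by 1.82 ± 0.16 in airway and 2.71 ± 0.19 in parenchyma on the log2 scale (SE, limma-voom). Fgl1, a ligand of LAG-3, rose by 2.21 ± 0.32 and 2.31 ± 0.37, and Cd86 by 1.23 ± 0.13 and 2.06 ± 0.15. Of 20 genes of other costimulatory or checkpoint pairs, 19 were tested and 12 were called higher in each tissue. Tnfrsf9, which encodes the stimulating receptor 4-1BB, rose by 3.55 ± 0.26 and 4.65 ± 0.30, Tnfsf4, the ligand of OX40, by 2.03 ± 0.38 and 3.80 ± 0.48, and Cd200r1, an inhibitory receptor of myeloid cells, by 2.14 ± 0.22 and 2.39 ± 0.21.

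Of 19 genes listed for regulatory T cells, 7 were called higher in airway against the 12.1% of all genes and 9 in parenchyma against the 14.5%, with 1 lower in each. Which cells expressed them in these bulk samples was not tested. The chemokine receptors Ccr8 and Ccr4 rose by 2.15 ± 0.25 and 2.10 ± 0.22 in airway and by 3.29 ± 0.29 and 3.02 ± 0.27 in parenchyma. Capg, an actin-capping protein, rose by 1.74 ± 0.16 and 2.68 ± 0.16. Of 15 transcription factors of activated or exhausted T cells, 3 were called higher and 1 lower in airway, and 4 higher in parenchyma, closer to the 12.1% and 14.5% of all genes than the other lists. Irf4 rose by 2.13 ± 0.19 and 2.68 ± 0.22 and Batf by 1.59 ± 0.11 and 1.71 ± 0.10, while Nr4a3 gave 0.09 ± 0.22 in airway, not past the test, and rose by 1.53 ± 0.28 in parenchyma. The lists gave medians of 0.89, 1.31, 0.81 and 0.45 in airway, all below the 3.07 of the 10 genes.

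The genes most like each of the 10 were named by Pearson correlation of mean log2 levels over the 20 groups, the top 3 for each, as a description only since the groups share controls by week and tissue. Cybb, Ctss and Naip2 were most like Cd274 (r from 0.990 to 0.993), and Cd300lb, Sh3bp2 and Tbxas1 were most like Havcr2 (r from 0.987 to 0.991). Tnfsf8 was most like Tigit (0.993), Crmp1 most like Pdcd1 (0.990) and Sp140 most like Pdcd1lg2 (0.986). For Ctla4 it was Gpr183 (0.984), for Icos A430093F15Rik (0.987), for Lag3 A530032D15Rik (0.980) and for Il10 Mir155hg (0.967). Fscn1, Gm26740 and Il2ra were most like Foxp3, at 0.944, 0.939 and 0.937, the lowest of these values. Among the 10 genes themselves, r ran from 0.496 between Havcr2 and Foxp3 to 0.988 between Ctla4 and Icos.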

How the data were processed

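The authors sequenced 100 bp reads of total RNA and deposited a single table that gives estimated counts for each gene, not scaled for library size or gene length. The submitters' processing notes name bcl2fastq 2.20.0.422, STAR 2.5.1b, RSEM 1.2.31, kallisto 0.44.0 and mm10, and which tool made the table is not given in the sources used here. Since 20.3% of the values above 0 are fractional, the estimated counts were rounded first, and among the 10 genes only Foxp3 had such values. Symbols, coordinates and exonic lengths come from GENCODE M21, which matched 42462 of 43346 identifiers without their version.

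The 10 genes and all lists were chosen with earlier results of these data known. Groups came from the labels. Each library has its own code, and neither the codes nor accession-ordered replicate numbers pair airway with parenchyma of one mouse, so libraries were treated as independent and p-values measure the spread between libraries.

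Counts were tested with limma-voom (limma 3.58.1, edgeR 4.0.16, R 4.3.3), with TMM scaling, one mean per group and a filter of the CPM that equals 10 counts in the median library, reached in at least 9 libraries. Fits held 43 libraries at 3 weeks (17381 genes tested), 160 at 11 weeks (18250) and all 203 for contrasts of the weeks (18528). A gene was called at adjusted p under 0.05 with an absolute log2 fold change of at least 1, and interactions passed at adjusted p under 0.05. Scripts were tested on simulated data. Named pathway genes were the 3 of each list with the largest absolute log2 fold change among those called with HDM at 3 weeks in either tissue. Results were recomputed with DESeq2 1.42.0, with edgeR's quasi-likelihood test and with DESeq2 size factors in limma-voom. Other filters, quality weights, other library sets and other references for the ratios were also used. Fits without X109 and without X65, X81 and X161 were chosen after seeing the data. Promoters come from RefSeq on GRCm38.p6. Arms of PBS.CS.DEX were in the fits but in no contrast, and were described by level.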

Additional observations from a re-analysis of the deposited data

Results flagged for a closer look

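In the 18 groups of 10 libraries, 15 of 180 gene and group pairs held a library that stood apart from the others of its group by Dixon's test. For independent, normally distributed values about 1 in 20 pairs would be flagged, but whether these CPM values meet that was not checked. Of the 15 pairs, 13 were flagged at the high end. The library X40 of HDM.CS.DEX parenchyma was highest for Pdcd1 at 3.98 CPM, Icos at 8.41 CPM and Tigit at 2.31 CPM. X65 of PBS.AIR airway was highest for Icos at 11.8 CPM and Foxp3 at 3.86 CPM, and X126 of PBS.AIR parenchyma for Havcr2 at 18.3 CPM and Tigit at 0.837 CPM. Foxp3 was also apart in X89 of HDM.AIR airway at 5.83 CPM and X157 of HDM.CS airway at 4.25 CPM. Havcr2 was apart in X5 of PBS.AIR airway, low at 6.87 CPM, and in X77 of HDM.CS airway, high at 56.5 CPM. Il10 was apart in X186 of PBS.AIR parenchyma at 0.302 CPM and X131 of HDM.AIR.DEX airway at 1.47 CPM. Lag3 was low in X194 of PBS.CS parenchyma at 0.359 CPM, and Tigit high in X96 of PBS.CS.DEX parenchyma at 0.604 CPM.

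Of 70 tests of a difference between effects, 23 passed by limma-voom. The Il10 effect of HDM was lower in airway than in parenchyma at 3 weeks by a log2 value of -1.79. The HDM effect was lower in smoke than in air in airway for Foxp3 (-2.12), Pdcd1 (-2.04), Tigit (-1.84), Ctla4 (-1.68), Pdcd1lg2 (-1.48), Icos (-1.26), Havcr2 (-0.84) and Cd274 (-0.56). In parenchyma the values were -2.48 for Pdcd1lg2, -2.42 for Tigit, -2.14 for Pdcd1, -1.88 for Foxp3, -1.57 for Ctla4, -1.37 for Havcr2, -1.10 for Icos and -0.99 for Cd274. Between 11 and 3 weeks, Il10 gave -1.78 in airway and -2.22 in parenchyma, Pdcd1lg2 -1.48 and -1.88, and Cd274 -0.83 and -1.45. The causes of these differences were not tested.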

How the results depend on the processing

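Of 244 counts of genes under alternatives, 211 stayed within 1.5 times the reported count. With a filter of 10 CPM in 9 libraries, 8 of the 10 genes could be tested at 3 weeks and 5 at 11 weeks, so counts fell. They were 5 and 5 for HDM in air (airway, parenchyma), 4 and 3 for HDM in smoke, 0 and 1 for smoke in PBS, 1 and 0 for dexamethasone in PBS, 0 and 2 in HDM.AIR and 3 and 3 in HDM.CS, 4 and 4 for HDM by smoke, 1 and 1 for the weeks, and 0 for both tissue contrasts and the 3 week interaction. With quality weights, the 3 week tissue contrast, its interaction and dexamethasone in PBS airway gave 0, and the weeks in parenchyma 6. The 3 week interaction gave 5 by edgeR and by DESeq2, 2 with DESeq2 size factors and 3 with all libraries in one fit. The 11 week tissue contrast gave 3 by edgeR and by DESeq2. One tissue per fit gave 5 for the weeks in parenchyma. Without X65, X81 and X161, the 3 week tissue contrast gave 1, its interaction 0 and dexamethasone in PBS airway 0.

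Of 1766 log2 fold changes, 1674 kept direction and side of adjusted p 0.05, while 35 gained and 47 lost an adjusted p under 0.05. The fold threshold was not part of this count. A further 10 changed sign, all near 0. For Havcr2 with smoke in HDM airway they were 0.000858 (DESeq2), 0.0044 (no filter), 0.052 (quality weights), 0.0086 (all libraries) and 0.032 (without X109). The others were 0.0051 for Il10 there and 0.10 for Lag3 with dexamethasone in PBS airway (quality weights), 0.0010 for Pdcd1lg2 in PBS parenchyma (edgeR), and 0.12 (quality weights) and 0.053 (without X109) for Cd274 in HDM.AIR airway. Of 360 ratios to Cd3 genes, 305 held, 17 gained and 16 lost an adjusted p under 0.05. Another 7, of the genes without a ratio test (Cd274, Pdcd1lg2, Havcr2), moved by at least the larger SD. A further 15 changed sign. With Trbc2 as reference, Foxp3 gave 0.29 and 0.68 for HDM at 3 weeks, 0.22 and 0.40 at 11 weeks and -0.16 for dexamethasone in HDM.CS airway, and Lag3 -0.13 for it in parenchyma. With 0.1 CPM added, Foxp3 gave 0.014 and 0.31 at 3 weeks, 0.21 in parenchyma at 11 weeks, -0.019 for smoke in HDM parenchyma and -0.15 and -0.16 for dexamethasone in HDM.CS, Il10 gave 0.19 for HDM in parenchyma at 11 weeks, and Lag3 -0.077 for dexamethasone in HDM.CS parenchyma. With Cd3e alone, Pdcd1 gave -0.0099 for dexamethasone in HDM.AIR airway. The cause was not tested. Leaving out each library in turn moved no called value by over 1.5 times.

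No paired analysis was possible because the labels number libraries by codes that do not tie the 2 tissues or groups to shared mice. Depth limits Il10 most, with a median of 9 counts per library over all groups and 0 in the lowest.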

Other observations

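One set of mice received smoke and dexamethasone without HDM. These libraries were used above only in the order of the 20 groups and in the correlations over them, and in no test of a contrast. In PBS.CS.DEX airway, Icos ranged from 1.46 over 3.14 to 7.78 CPM, Foxp3 from 0.0815 over 0.610 to 6.50 CPM and Ctla4 from 0.442 over 0.923 to 6.34 CPM, the widest ranges relative to the median lying in the last 2. In PBS.CS.DEX parenchyma, Icos ranged from 1.42 over 2.15 to 3.02 CPM and Havcr2 from 23.3 over 28.4 to 33.4 CPM, the latter near the PBS.CS range of 28.5 to 37.4 CPM. No contrast was made of these values.

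When likeness was measured by Spearman instead of Pearson correlation over the 20 groups, 10 of the 30 genes named were shared by both measures. Cybb stayed first for Cd274, and Tnfsf8 stayed first for Tigit at 0.992.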
